A study of Zea mays with 48 samples.

Results

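The 5 genes described here encode proteins that pack DNA into chromatin or modify it: his1, hdt103, nfa104, mez1 and mez2. They were taken as every probe set whose gene symbol or synonym, in the array's annotation or for the same gene in RefSeq, is one of these names. That gave 14 probe sets of 5 genes, out of 1452 probe sets with 1 listed gene, which stand for 1108 genes. The annotation lists them as LOC542385 (his1), LOC542355 (hdt103), LOC542654 (nfa104), LOC541954 (mez1) and LOC542659 (mez2). his1 had 6 probe sets, hdt103 had 4, nfa104 had 2, and mez1 and mez2 had 1 each. A probe set is a group of short probes whose brightness is summarised as 1 signal. Probe sets listed for 1 gene were taken as repeated readings of it and not as independent evidence. Signals of different probe sets are not on a common scale and were not set against each other.

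DNA in the nucleus is wound around histones, and linker histones of the H1 type (his1 has the synonym H1) bind between these units and pack them more tightly. hdt103 belongs to the HD2-type histone deacetylases, a plant-specific family of nucleolar proteins that remove acetyl groups from histones, and nfa104 to the NAP1-like chaperones, which carry histones to and from DNA. mez1 and mez2 are the maize counterparts of Enhancer of zeste, which in Drosophila is the Polycomb subunit that methylates histone H3 to keep genes silent. A transcript can be held at a steady level and yet be translated more or less, which is why its share on polysomes, the strings of ribosomes that make protein, was measured beside its total level.

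The study followed the pulvinus, the tissue that bends a fallen grass stem upright. Maize plants of the inbred line B73 were grown in pots in a greenhouse for about 6 weeks. Pots were laid over by 90 degrees, and after 2, 5, 15, 30 or 60 min the second pulvinus above the soil was split into its upper side, where cells elongate slowly, and its lower side, where elongation is fast. Plants left vertical gave a left and a right side. Each pool held 6 plants, and aliquots of 1 frozen powder gave total RNA and polysome-bound RNA, so that every powder has an array of each kind. No mutant or chemical was used. There were 24 groups of 2 arrays, the 2 repetitions coming from 2 growing seasons (called season 1 and season 2 after the repetition number). The level of an RNA in such a powder cannot tell apart fewer cells of a type and less RNA per cell.

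All values below are log2(signal + 16), on which a difference of 1 is a ratio of 2, unless a signal or a ratio is named. Polysome loading is the polysomal minus the total log2 value of 1 powder. Arrays were scaled separately, so a loading of 0 means that a transcript was on polysomes in the proportion of a typical probe set, not that a given percentage of it was translated. Trimmed mean signals lay between 495.78 and 499.11 on all arrays. The polysomal array of the upper side at 5 min in season 1 stood apart, with a correlation of 0.903 with the other side of its pool against 0.973 to 0.992 in the other 23 pools, and results that rest on it are given without it as well.

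10 of the 14 probe sets passed the filter on dim signals, which kept 10527 of 17545 probe sets with a mean log2 value above the 40th percentile. They were 3 of his1, 3 of hdt103, both of nfa104, and those of mez1 and mez2. The names of these 3 his1 probe sets end in _x_at, as does that of Zm.856.1.A1_x_at of hdt103. That of Zm.7309.1.S1_s_at of nfa104 ends in _s_at. Whether their probes also read transcripts of other genes was not checked. mez1, with a mean of 7.52, was the dimmest just inside the limit of 6.88, and Zm.856.2.S1_at of hdt103, with 6.68, lay just outside it. The other 3 his1 probe sets, Zm.6393.4.A1_a_at, Zm.6393.4.A1_at and Zm.6393.4.A1_x_at, were dimmer, with means of 4.52, 5.21 and 4.91. Fitted without the filter, these 3 differed from vertical plants at 15 min by −0.03, −0.07 and 0.01 in total RNA, with an SE of 0.267 to 0.45, and Zm.856.2.S1_at by 0.10 (SE 0.285).

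his1 was the gene whose total RNA was already known from these arrays to be low at 15 and 30 min, so its values over time describe it and no test is attached to them. On the vertical plants its probe set Zm.6393.4.S1_x_at gave total RNA signals of 1229.2 (left) and 1218.5 (right) in season 1, and of 1435.7 and 1574.5 in season 2. At 15 min the signals were 421.0 (lower) and 313.0 (upper) in season 1, and 1021.5 and 714.5 in season 2. All 4 arrays at 15 min were below all 4 vertical arrays, and the season 1 pair was the lower of the 2 pairs. At 30 min the signals were 384.1 and 345.3 in season 1 and 1040.1 and 1076.4 in season 2, again all below the vertical arrays. At 60 min they were 692.7 (lower) and 804.3 (upper) in season 1 and 764.4 and 596.2 in season 2, so the seasons no longer differed in the same direction on both sides.

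The fitted difference from the vertical plants for this probe set in total RNA was −0.46 and −0.61 at 2 and 5 min, −1.26 and −1.10 at 15 and 30 min, and −0.92 at 60 min, each with a standard error (SE) of 0.27. At 15 min that is a ratio of 0.419, and at 30 min of 0.466. The other 2 probe sets past the filter (below also called bright) gave smaller differences of the same sign. For Zm.6393.1.A1_x_at they were −0.03, −0.19, −0.66, −0.68 and −0.52 at the same 5 times (SE 0.23), and for Zm.6393.2.S1_x_at −0.03, −0.17, −0.70, −0.75 and −0.52 (SE 0.20). The ratios of Zm.6393.1.A1_x_at were 0.632 at 15 min and 0.622 at 30 min. At 2 min, then, these 2 probe sets lay within 1 SE of the vertical plants, and the third was lower by more than 1 SE.

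The signals of Zm.6393.1.A1_x_at in total RNA show the same course array by array. The vertical arrays held 2625.2 and 2636.3 in season 1 and 2371.7 and 2874.9 in season 2. At 15 min the lower and upper sides gave 1340.0 and 1615.5 in season 1 and 1928.0 and 1777.8 in season 2. All 4 lay below the lowest vertical array. At 30 min season 1 gave 1148.7 and 1109.3, the lowest values of this probe set in total RNA, while season 2 gave 2384.9 and 2284.2, of which the lower side was above the lowest vertical array. At 60 min the 4 arrays lay between 1597.3 and 1935.7, all below the vertical ones and with no such gap between seasons.

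The 2 seasons therefore gave different sizes at 30 min. In total RNA the season 1 difference was −1.21 for Zm.6393.1.A1_x_at, −1.22 for Zm.6393.2.S1_x_at and −1.71 for Zm.6393.4.S1_x_at, against −0.16, −0.28 and −0.50 in season 2. At 15 min the season 1 values were −0.83, −0.82 and −1.71, and the season 2 values −0.49, −0.59 and −0.80. At 60 min they were −0.46, −0.46 and −0.70 in season 1 and −0.57, −0.58 and −1.14 in season 2. All of these values are below 0, and the difference between seasons was not tested. Zm.6393.4.S1_x_at also had a season difference of its own, being higher in season 2 in 11 of 12 groups of total RNA by 0.68 ± 0.59 (SD, n = 12 groups).

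Polysomal RNA of his1 followed its total RNA. The vertical polysomal signals of Zm.6393.4.S1_x_at were 1174.4, 1070.7, 1048.9 and 1308.2, in the order left and right of season 1, then of season 2. At 15 min they were 282.0 (lower) and 352.1 (upper) in season 1 and 690.4 and 760.8 in season 2. At 30 min they were 239.6 and 169.1 in season 1 and 944.1 and 1113.2 in season 2, so that season 1 held the lowest polysomal values and the season 2 upper side lay among the vertical arrays. The fitted differences were −0.23, −0.55, −1.23, −1.29 and −0.74 at the 5 times (SE 0.36). For Zm.6393.1.A1_x_at they were −0.11, −0.25, −0.73, −0.60 and −0.43 (SE 0.20), and for Zm.6393.2.S1_x_at −0.09, −0.17, −0.67, −0.61 and −0.36 (SE 0.21). At 15 min and at 60 min, all 3 probe sets had all 4 arrays below all 4 vertical arrays in total and in polysomal RNA alike, while at 30 min this was so in total RNA for Zm.6393.2.S1_x_at and Zm.6393.4.S1_x_at. Of all 10527 probe sets, 5.83% had all 4 arrays below at 15 min in total RNA and 5.17% in polysomal RNA, with 4.74% in total RNA at 30 min and 3.81% and 4.84% in total and polysomal RNA at 60 min. Nothing is read from these shares, since the choice of his1 used its total RNA.

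**Figure D1:**
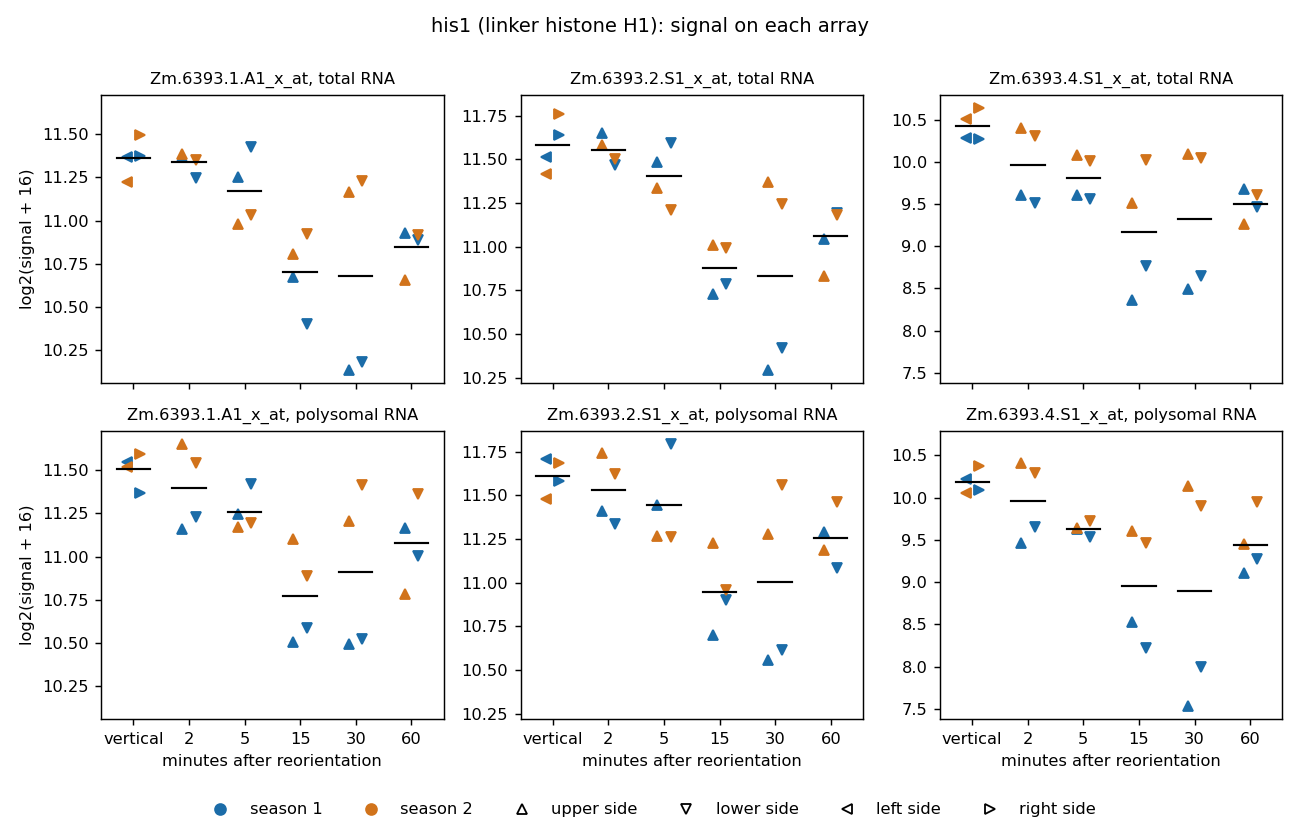
Signal of the 3 bright his1 probe sets on each array, as log2(signal + 16), in total RNA (top) and polysomal RNA (bottom), for vertical plants and 2 to 60 min after the turn. Colour gives the season, the marker gives the side, and black bars are means of 4 arrays: season 1 holds the lowest points at 30 min, and at 15 and 60 min all points lie below the vertical ones.

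All comparisons with the vertical plants used the same 4 vertical arrays per kind of RNA. The times after the turn can be set against each other without them. The mean of 15 and 30 min minus the mean of 2 and 5 min for his1 was −0.56, −0.62 and −0.64 in total RNA (in the order Zm.6393.1.A1_x_at, Zm.6393.2.S1_x_at, Zm.6393.4.S1_x_at) and −0.49, −0.51 and −0.87 in polysomal RNA. The 60 min value minus the mean of 15 and 30 min was 0.16, 0.21 and 0.26 in total RNA and 0.24, 0.28 and 0.52 in polysomal RNA. These 6 values are above 0, and at 60 min the fitted level was still below that of the vertical plants in each case. The bright probe sets of his1 moved together over the 24 total RNA arrays once season means were removed, with Pearson correlations of 0.867 to 0.974. This describes readings that are listed for 1 gene and share a set of arrays.

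Fitted differences of green tissue genes were below 0 at the same times. Of the 13 probe sets of the green tissue list (light-harvesting proteins, photosystem subunits, Rubisco small subunit and oxygen-evolving proteins), 12 passed the filter. Their median difference in total RNA was −0.49 at 15 min, with a range of −0.67 to −0.17, and −0.72 at 30 min, with a range of −1.18 to −0.39. In polysomal RNA it was −0.48 at 15 min and −0.67 at 30 min, and in all 4 comparisons only 1 of the 12 passed the test in 1 comparison, lower in polysomal RNA at 30 min. The summed signal of all 13, the dim one included, was in total RNA 23375.7 to 25537.5 on the vertical arrays, 11724.6 to 26183.7 at 15 min and 9386.3 to 23338.5 at 30 min. Their part in the his1 result was not tested. Of the markers of other cells, the 3 pollen probe sets had median signals between 1.6 and 2.45, and 10 of the 11 seed storage probe sets were below the filter. The remaining one, Zm.34.1.A2_a_at of gz27, had a median signal of 776.05. Other gz27 probe sets, Zm.34.1.A1_x_at and Zm.34.6.A1_x_at, had 5.35 and 6.85. Of the 13 cell cycle probe sets 5 passed the filter, with a median total RNA difference of −0.06 and a range of −0.13 to 0.89 at 15 min. PCNA, the sliding clamp of DNA replication, rose in polysomal RNA by 0.98 at 15 min (SE 0.24, adjusted p = 0.0286) and by 0.99 at 30 min (SE 0.24, adjusted p = 0.0376), with 0.88 and 0.89 in total RNA, which did not pass. The probe set listed as magi81248 was at 1.31 and 1.30 in polysomal RNA at these times and did not pass, and cycD2 and both cdc2 probe sets lay between −0.16 and 0.03 in both kinds of RNA. The part of these genes in the results of the 5 genes was not tested. The mitotic cyclin probe sets cyc2 and cyc3, at medians of 17.95 and 24.75, were among the dim ones.

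By the measured course over the 24 total RNA arrays, with season means removed, the named genes most like his1 were membrane water channels and a light-harvesting gene. Among 917 candidates, PIP1-3, a plasma membrane aquaporin, had Pearson correlations of 0.905, 0.864 and 0.837 with the 3 his1 probe sets. Lhcb5-2, a light-harvesting protein gene, had 0.881 and 0.872 with the first and second, and the gene listed as inra1(tmp), whose synonym is PIP1-1, had 0.871 and 0.858. With Zm.6393.4.S1_x_at the other 2 were FL1, at 0.808, and pip2c, at 0.770. These correlations share their arrays, seasons and plant pools and carry no test.

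The loading of his1 on polysomes was near that of a typical probe set. In the vertical powders the 3 bright probe sets had loadings of 0.14 (SE 0.10, 95% interval −0.08 to 0.36), 0.03 (SE 0.10, −0.17 to 0.24) and −0.24 (SE 0.15, −0.57 to 0.09), in the same order as before, and none passed the test (limma, adjusted p = 0.33, 0.831 and 0.255). They stood at the 62.5th, 46.7th and 19.4th percentile of all probe sets tested. Loading was below 0 in 7, 10 and 16 of the 24 powders. Averaged over the 5 times, the loading after the turn minus that of the vertical powders was −0.01 (95% interval −0.25 to 0.24), 0.06 (−0.17 to 0.28) and 0.06 (−0.30 to 0.42). The last mean combines unlike seasons. Loading contains the total RNA values on which his1 was chosen, so these intervals describe the spread and are not a test. The vertical loadings use the same vertical total RNA arrays, so their intervals and adjusted p-values are the fit's own values and not independent support. At 30 min Zm.6393.4.S1_x_at had loadings of −0.65 (lower) and −0.96 (upper) in season 1, against −0.06 (left) and −0.18 (right) in vertical powders. In season 2 they were −0.14 and 0.05, against −0.45 and −0.26. In season 1 at 30 min Zm.6393.1.A1_x_at gave 0.34 and 0.36, and Zm.6393.2.S1_x_at 0.20 and 0.27. In season 2 at 30 min Zm.6393.1.A1_x_at gave 0.18 (lower) and 0.04 (upper), and Zm.6393.2.S1_x_at 0.32 and −0.10. The difference between seasons was not tested.

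hdt103, was under-represented on polysomes. In the vertical powders its probe set Zm.856.1.A1_a_at had total RNA signals of 3624.9, 3610.1, 2594.7 and 2602.7 (left and right of season 1, then of season 2), and polysomal signals of 1780.1, 1650.9, 1251.7 and 1035.3 in the same powders. The polysomal signal was below the total signal in each of these powders. The loading was −1.02, −1.12, −1.04 and −1.32 in these powders, with a fitted mean of −1.12 (SE 0.10, 95% interval −1.34 to −0.91, ratio 0.459). That value passed the test (limma, adjusted p = 6.71e-06) and lay at the 1.54th percentile of all probe sets. Zm.856.1.A1_x_at had a loading of −1.38 (SE 0.16, ratio 0.384, adjusted p = 2.14e-05) and Zm.856.2.A1_a_at of −0.80 (SE 0.11, ratio 0.575, adjusted p = 9.3e-05). It is not recorded whether the loading, side or time values of hdt103, nfa104, mez1 and mez2 entered their choice, so the adjusted p-values given for them are the fit's own values over all probe sets and not independent support.

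The low loading of hdt103 held in each of the 24 powders for each of its 3 bright probe sets, with ranges of −1.32 to −0.62, −1.79 to −0.70 and −1.30 to −0.36. The dim Zm.856.2.S1_at was below 0 in 22 of 24. Of the 10 bright probe sets of the 5 genes, 4 passed the test for vertical loading and all 4 were lower: the 3 of hdt103 and Zm.7309.1.S1_s_at of nfa104. Of all probe sets tested 31.0% passed, 14.6% lower and 16.4% higher. The median loading of the 10 was −0.35, against 0.06 for all probe sets tested.

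**Figure D2:**
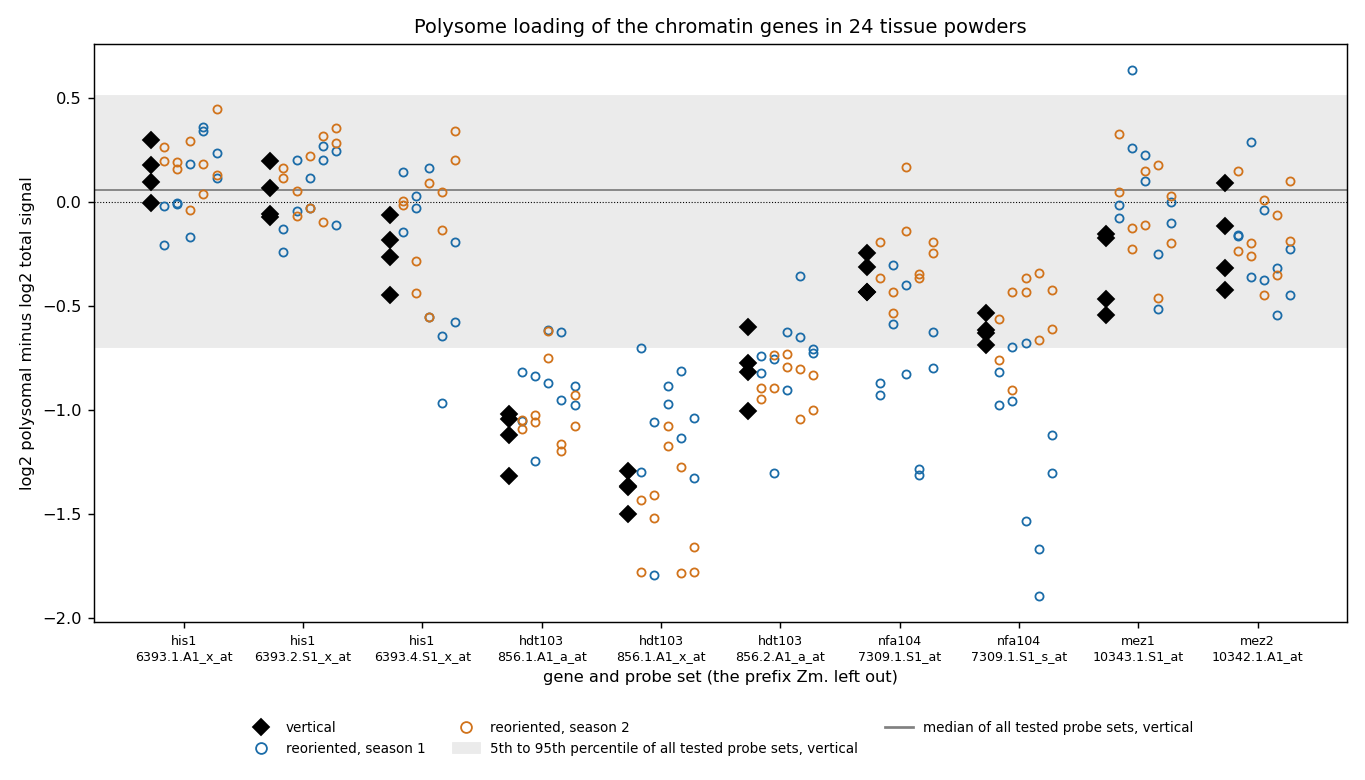
Polysome loading (log2 polysomal minus total) of the 10 bright probe sets in each of the 24 powders: black diamonds are vertical powders, open circles are powders of turned plants by season. The grey band spans the 5th to 95th percentile of all probe sets tested in vertical powders (−0.70 to 0.51) with their median (0.06), and every hdt103 point lies below 0.

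After the turn, polysomal RNA of hdt103 rose at 15 min by the reading of 1 of its 3 bright probe sets. The polysomal signals of Zm.856.1.A1_a_at at 15 min were 2240.0 (lower) and 1844.8 (upper) in season 1 and 2220.0 and 2098.1 in season 2. All 4 exceeded the highest vertical array, 1780.1. The fitted difference was 0.58 (SE 0.15, 95% interval 0.25 to 0.91, ratio 1.49, adjusted p = 0.0489). It was 0.24 in season 1 and 0.91 in season 2, the vertical arrays of season 2 being the lowest of the 12 conditions by season for this probe set. The other 2 probe sets gave 0.61 (SE 0.22, adjusted p = 0.15) and 0.31 (SE 0.16, adjusted p = 0.364), which did not pass.

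That call is a narrow one. With quantile normalization its adjusted p was 0.058, with the means of both sides of a pool it was 0.13, and it passed in 8 of the 24 fits that left out 1 array. It was lost without any 1 of the 4 arrays of season 2 in the comparison, without the left vertical or the lower 15 min array of season 1, and without any 1 of 10 arrays of other times, with differences between 0.488 and 0.669 in all 24 fits and an adjusted p of at most 0.147. At 2 and 5 min the polysomal difference was 0.40 and 0.28, and at 30 and 60 min 0.24 and 0.38. None of these passed the test, and neither did the mean over 5 times, 0.38 (SE 0.12, adjusted p = 0.155), in a comparison in which 1.44% of all probe sets passed.

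No difference of hdt103 in total RNA passed the test. Those of Zm.856.1.A1_a_at were 0.27, 0.19, 0.17, 0.10 and 0.22 from 2 to 60 min. At 15 min the total RNA signals were 3445.6, 3385.0, 3417.2 and 3536.4, inside the range of the vertical arrays. Zm.856.2.A1_a_at had all 4 arrays at 15 min above the vertical ones, at 4029.2 to 4339.9 against 3153.5 to 3869.8. Of all probe sets, 6.63% had all 4 total RNA arrays above at 15 min and 6.73% all 4 polysomal arrays.

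The loading of hdt103 at 15 min did not pass as changed for any of its probe sets. For Zm.856.1.A1_a_at it was −0.62 (lower) and −0.87 (upper) in season 1 and −0.62 and −0.75 in season 2. The difference was 0.41 (SE 0.15, 95% interval 0.10 to 0.72), with an adjusted p of 0.597 over all probe sets. Zm.856.1.A1_x_at differed by 0.36 (−0.11 to 0.82, adjusted p = 0.884) and Zm.856.2.A1_a_at by 0.04 (−0.29 to 0.36, adjusted p = 0.995), its powders at 15 min lying among the vertical ones. Averaged over the 5 times the change was 0.18 (−0.06 to 0.42) for the first probe set, against 0.09 (−0.27 to 0.45) for Zm.856.1.A1_x_at and −0.01 (−0.27 to 0.24) for Zm.856.2.A1_a_at. No probe set of any gene passed the test for a change of loading at any of the 5 times or in their mean with limma, while 329, 654, 697, 245 and 205 had an unadjusted p under 0.05 at the 5 times and 288 in the mean.

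nfa104 lay between his1 and hdt103 in its loading. Its probe set Zm.7309.1.S1_s_at had total RNA signals of 1262.9, 1202.6, 1215.9 and 1320.8 in the vertical powders and polysomal signals of 777.7, 826.1, 778.9 and 855.3. The loading was −0.62 (SE 0.18, 95% interval −0.99 to −0.24, ratio 0.652, adjusted p = 0.0153). It passed in 22 of the 24 fits that left out 1 powder, and not without the left (adjusted p = 0.0926) or the right (adjusted p = 0.125) vertical powder of season 2. Zm.7309.1.S1_at had a loading of −0.36 (SE 0.14, −0.65 to −0.06), which did not pass (adjusted p = 0.0612). Loading was below 0 in 24 of 24 powders for the first of these and in 23 of 24 for the other.

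The total RNA of nfa104 differed from the vertical level by 0.20, −0.03, 0.12, 0.15 and 0.17 for Zm.7309.1.S1_s_at (SE 0.13) and 0.26, 0.16, 0.12, 0.19 and 0.19 for Zm.7309.1.S1_at (SE 0.14). No value passed the test. Its polysomal RNA differed between the seasons. At 30 min Zm.7309.1.S1_s_at gave 496.0 (lower) and 337.7 (upper) in season 1, both below every vertical array, and 835.3 and 1057.2 in season 2, where the upper side was above every vertical array. The fitted difference of −0.37 (SE 0.24) averages these. In polysomal RNA season 2 was higher than season 1 in 12 of 12 groups for both probe sets, by 0.64 ± 0.47 and 0.51 ± 0.29 (SD, n = 12 groups), against 10 and 7 of 12 in total RNA.

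The loading of nfa104 split by season in the same way. At 30 min the loading minus that of the vertical powders was −1.17 in season 1 and 0.12 in season 2 for Zm.7309.1.S1_s_at, and −0.92 and −0.02 for Zm.7309.1.S1_at. The combined differences were −0.52 (95% interval −1.06 to 0.01) and −0.47 (−0.89 to −0.05), which did not pass over all probe sets (adjusted p = 1 for both). Averaged over the 5 times, the values were −0.55 in season 1 and 0.08 in season 2 for the first probe set, and −0.42 and 0.07 for the other. The difference between the seasons was not tested.

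**Figure D3:**
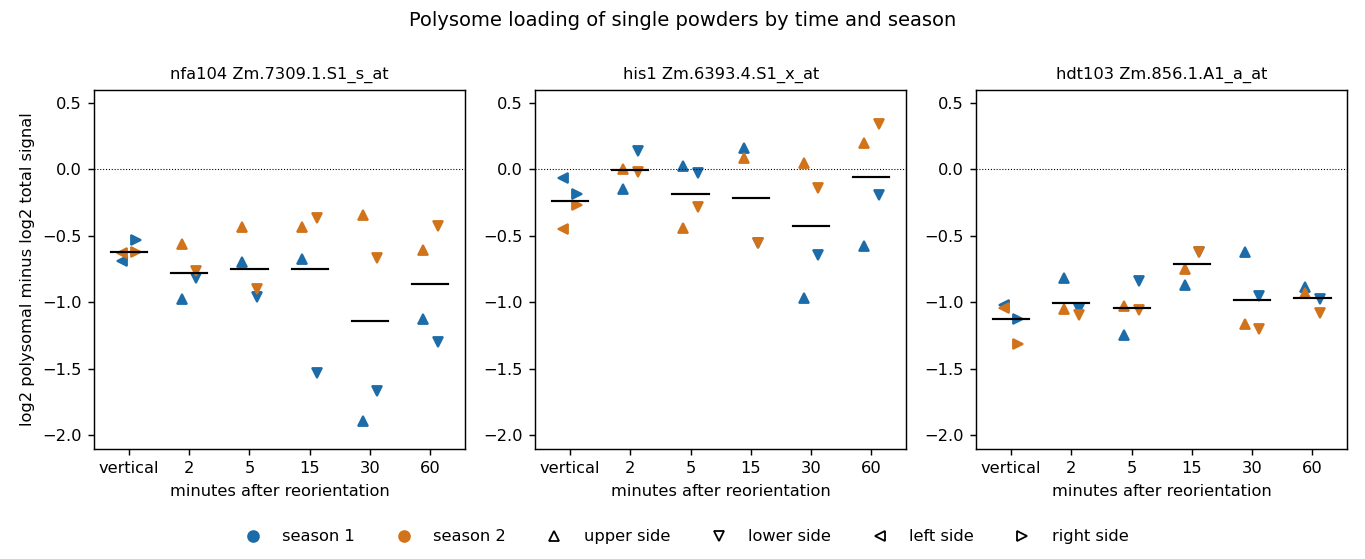
Polysome loading by time after the turn for 1 probe set each of nfa104, his1 and hdt103, with each powder as a point coloured by season. The hdt103 points stay between −1.32 and −0.62 at every time. At 30 min the nfa104 and his1 points of season 1 lie below those of season 2.

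Neither mez1 nor mez2 passed a test over time. mez1 had total RNA signals of 154.3, 170.0, 202.9 and 177.6 on the vertical arrays, and its differences from 2 to 60 min were −0.27, −0.24, 0.02, 0.25 and 0.05 (SE 0.20). Its polysomal signals were 136.7, 118.5, 134.1 and 155.5 on the vertical arrays and 164.5 (lower), 184.0 (upper), 181.8 and 236.7 at 15 min. All 4 arrays at 15 min exceeded all 4 vertical ones, as did those at 60 min. Of all probe sets, 6.73% had all 4 polysomal arrays above at 15 min and 4.70% at 60 min. The polysomal differences were 0.14, 0.23, 0.44, 0.32 and 0.31, the value at 15 min having an SE of 0.15 and an adjusted p of 0.134. Its total RNA at 15 and 30 min was 0.38 above that at 2 and 5 min (SE 0.14), which did not pass either (adjusted p = 0.123).

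The loading of mez1 in vertical powders was −0.34 (SE 0.13, 95% interval −0.61 to −0.06, adjusted p = 0.0615), and the powders ranged from −0.54 to 0.63, with 14 of 24 below 0. Averaged over the 5 times its loading was 0.33 above the vertical powders (SE 0.14, 95% interval 0.02 to 0.63), and at 15 min 0.43 above them (SE 0.18, 0.03 to 0.82, adjusted p = 0.708). No adjusted p for a change of loading passed.

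mez2 had polysomal signals of 550.2, 548.8, 425.2 and 400.7 on the vertical arrays and of 496.1 (lower), 339.4 (upper), 320.1 and 309.9 at 15 min. The lower side of season 1 overlapped the vertical arrays and the other 3 arrays lay below them. The difference was −0.39 (SE 0.15, adjusted p = 0.195), and in total RNA −0.37 (SE 0.18, adjusted p = 0.347). At 60 min mez2 was within 1 SE of the vertical plants, at 0.05 in both kinds of RNA. Its loading of −0.19 (SE 0.10, 95% interval −0.40 to 0.02) did not pass the test (adjusted p = 0.152), and its mean change after the turn was 0.00 (−0.23 to 0.23).

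**Figure D4:**
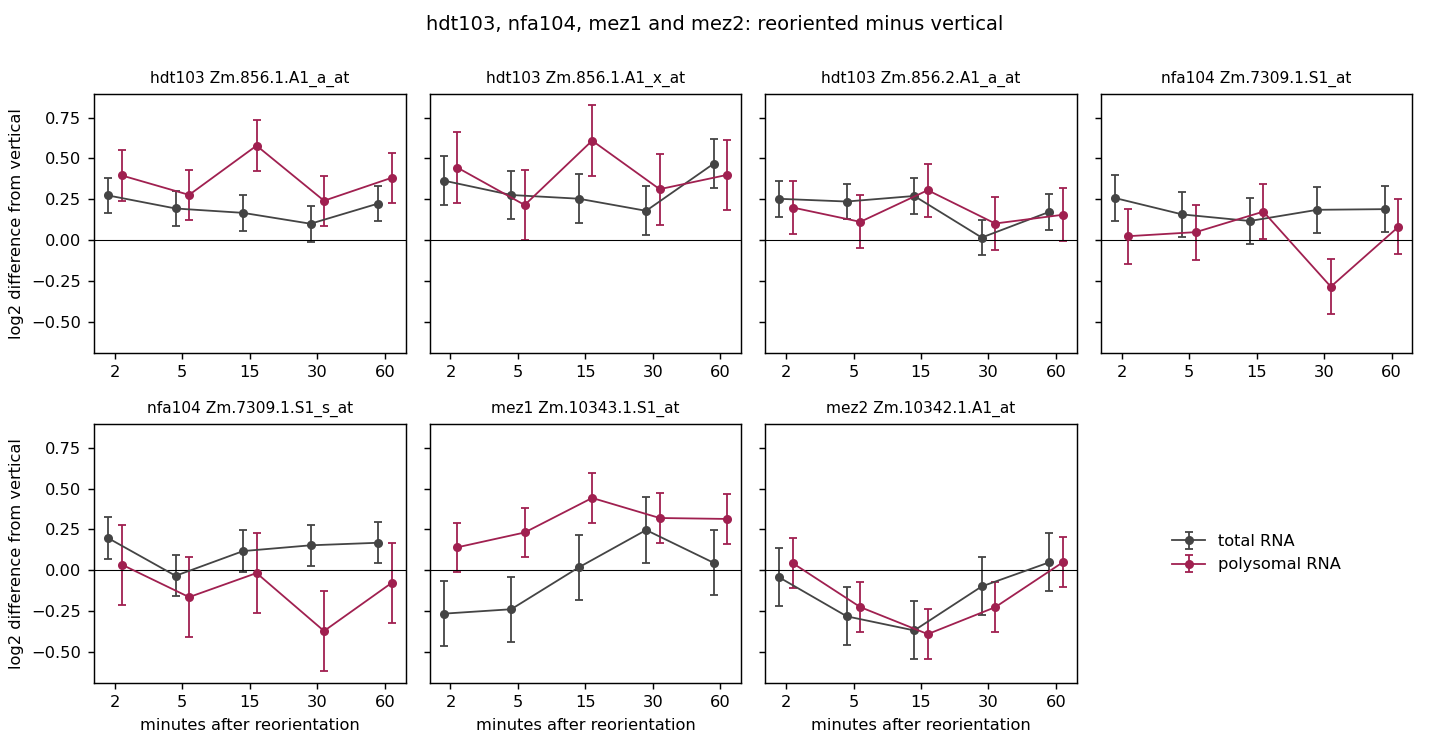
Difference from vertical plants (log2 ± SE) at 2, 5, 15, 30 and 60 min for the 7 bright probe sets of hdt103, nfa104, mez1 and mez2, in total and polysomal RNA. The polysomal value of hdt103 Zm.856.1.A1_a_at at 15 min, 0.58, passed the test, and no other value shown did.

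Counted over the 5 times, without his1, 1 of the 7 bright probe sets of the other 4 genes passed. In total RNA none of the 7 passed with limma at 2, 5, 15, 30 or 60 min or in the mean of the 5 times, where the shares over all probe sets were 0.00950%, 0.0190%, 2.78%, 1.07%, 0.323% and 0.427%, and where 3, 1, 1, 0, 1 and 3 of the 7 had an unadjusted p under 0.05. In polysomal RNA at 15 min 1 was higher (hdt103 Zm.856.1.A1_a_at), against 3.79% of all probe sets, and 4 of the 7 had an unadjusted p under 0.05. None passed at 2, 5, 30 or 60 min, against 0%, 0.551%, 2.45% and 1.46% of all probe sets, while 1, 0, 0 and 1 of the 7 had an unadjusted p under 0.05. In the mean of the 5 times none passed, against 1.44% of all probe sets, and 3 of the 7 had an unadjusted p under 0.05. The shares above are of adjusted calls. Of all 10527 probe sets, 897, 738, 1560, 1267 and 1123 had an unadjusted p under 0.05 in total RNA from 2 to 60 min, and 1153 in the mean. In polysomal RNA these numbers were 767, 1190, 1773, 1592 and 1529, and 1466 in the mean. A joint limma test of the 5 times called 0 of the 7 in total RNA, polysomal RNA or loading, against 3.85%, 6.23% and 0% of all probe sets, and 0, 1 and 0 of the 7 had an unadjusted p under 0.05. Of all 10527 probe sets, 1853, 2227 and 479 had an unadjusted p under 0.05 in this joint test.

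The 2 sides of the turned pulvinus differed for 1 probe set of the 5 genes. At 5 min polysomal RNA of mez2 was 589.3 on the lower and 358.6 on the upper side in season 1, and 419.7 and 303.0 in season 2. The lower side was higher in both seasons, by 0.57 in the fit (SE 0.14, adjusted p = 0.0205), in a comparison in which 12% of all probe sets passed. The season 1 upper array is the one that stood apart from the rest. Without it the difference was 0.52 with an adjusted p of 0.174, and the number of probe sets called fell from 1261 to 158. Leaving out the season 1 lower array gave 0.43 and an adjusted p of 0.33. Averaged over the 5 times, the mez2 side difference was 0.25 (SE 0.06, adjusted p = 0.222), and in total RNA at 5 min it was 0.22 and did not pass. No probe set of the other 4 genes passed a side test with limma. In the other side comparisons no more than 0.266% of all probe sets passed (0.0380% in total RNA at 15 min, 0.266% at 60 min, 0.00950% in polysomal RNA at 60 min, and 0% otherwise), and at most 2 of the 10 had an unadjusted p under 0.05 in any of them. Such a p was held by 177 to 1031 of all 10527 probe sets in these comparisons of total and polysomal RNA. Between right and left of vertical plants none of the 10 passed, against 0.0190% of all probe sets in total and 0% in polysomal RNA.

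The other chromatin genes of the array were described from a list drawn up by gene symbol: 60 genes with 73 probe sets, of which 57 passed the filter. In vertical powders 6 of the 57 were loaded more and 11 less than a typical probe set, or 29.8%, close to the 31.0% of all probe sets. Their median loading was 0.03, and their range of −0.69 to 0.47 did not reach the hdt103 values. The nearest hdt103 value was −0.80, for Zm.856.2.A1_a_at, and its gap to this range was not tested. The lowest of the list was the centromeric histone cenH3 at −0.69 (SE 0.15, adjusted p = 0.00293). It was followed by vef101, a gene of the Polycomb list, at −0.67 (SE 0.14, adjusted p = 0.00252). The highest was hda110, a histone deacetylase gene, at 0.47 (adjusted p = 0.00295), followed by the deacetylase gene Hda1 at 0.43 (adjusted p = 0.00546), which the naming rule had not picked. Genes picked by the rule came next, with met2, a DNA methyltransferase gene, at 0.41 (adjusted p = 0.0214), hda101, another deacetylase gene, at 0.40 (adjusted p = 0.0136), and HMG I/Y-2, a gene of the high mobility group proteins, at 0.40 (adjusted p = 0.0372).

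Relatives of the 5 genes were looked up after their values had been seen. The 3 other NAP1-like probe sets were also loaded less than a typical probe set: nfa101 at −0.29 (adjusted p = 0.0359), nfa102 at −0.50 (adjusted p = 0.00283) and nfa103 at −0.51 (adjusted p = 0.00503). HD2b, the relative of hdt103, had a loading of −0.19 (adjusted p = 0.0744), which did not pass. The linker histone gene hon101, which the naming rule had picked, was at −0.80 in total RNA (adjusted p = 0.256) and −0.85 in polysomal RNA (adjusted p = 0.16) at 15 min, and at −0.09 and −0.11 at 60 min. Its polysomal RNA at 15 and 30 min was below that at 2 and 5 min (log2 −0.81, SE 0.22, adjusted p = 0.0322), but at −0.78 did not pass without the polysomal array that stood apart (adjusted p = 0.0675). The linker histone gene his1a was at −0.04 in total RNA at 15 min (adjusted p = 0.904), and at −0.26 and −0.20 at 30 and 60 min. In polysomal RNA it was at −0.30, −0.16 and −0.21 at 15, 30 and 60 min. None of these his1a values passed the test.

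**Figure D5:**
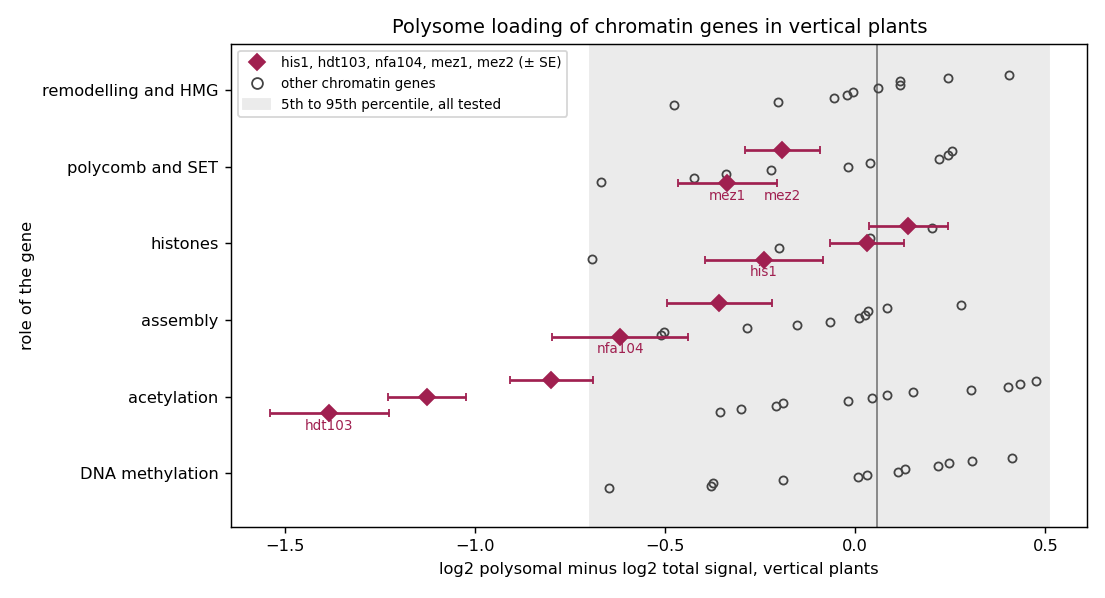
Polysome loading in vertical powders of the 57 other chromatin probe sets, grouped by role, with the 10 bright probe sets of the 5 genes and their SE. The 57 lie between −0.69 and 0.47, and the 3 hdt103 values, −1.12, −1.38 and −0.80, lie below all of them.

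Over time few of the other chromatin genes passed. In total RNA 0 of the 57 passed with limma at any of the 5 times, against 0.00950%, 0.0190%, 2.78%, 1.07% and 0.323% of all probe sets. At these times 11, 4, 4, 4 and 2 of the 57 had an unadjusted p under 0.05. Of all 10527 probe sets, 897, 738, 1560, 1267 and 1123 had one. The DNA methyltransferase gene dmt101 was higher at 15 and 30 min than at 2 and 5 min by 0.39 in total RNA (SE 0.11, adjusted p = 0.0497), a comparison in which 6.01% of all probe sets passed. In polysomal RNA HMG I/Y-2 rose at 30 min by 0.65 (SE 0.11, adjusted p = 0.00358) and at 60 min by 0.77 (adjusted p = 0.00272; without the array that stood apart, adjusted p = 0.00778 and 0.00602), against 2.45% and 1.46% of all probe sets called. The acetyltransferase gene hac108 was lower at 15 and 30 min than at 2 and 5 min in polysomal RNA (log2 −0.39, SE 0.10, adjusted p = 0.0211), where 7.05% of all probe sets passed, and at −0.42 it still passed without the array that stood apart (adjusted p = 0.0241). Between sides at 5 min in polysomal RNA, 2 of the 57 passed, or 3.51%, against 12% of all probe sets. The SET-domain gene set105 was higher on the lower side by 0.67 (adjusted p = 0.026), and HD2b, the relative of hdt103, was lower there (log2 −0.24, adjusted p = 0.0351). Without the array that stood apart, set105 differed by 0.16 (SE 0.12, adjusted p = 0.576) and HD2b by −0.20 (SE 0.08, adjusted p = 0.244), so that neither passed. The median difference of the 57 at 15 min was 0.03 in total and 0.05 in polysomal RNA.

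The genes whose total RNA course was most like that of the other 4 were of mixed kinds. For hdt103 Zm.856.1.A1_a_at they were gst12, m4 and eIF4E1, with correlations of 0.805, 0.774 and 0.772. For nfa104 Zm.7309.1.S1_s_at they were led by nfa103, at 0.807, a gene of the same NAP1-like family, and followed by dehydrin3 at 0.740 and hmg2 at 0.701. nfa103 also had 0.650 with the other nfa104 probe set. For mez1 they were tub5, Sal1 and pdi7, at 0.857, 0.830 and 0.772, and for mez2 rps6, arpp1a and AK1, at 0.772, 0.749 and 0.702.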

How the data were processed

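The data are 48 Affymetrix GeneChip Maize Genome arrays. The deposited values are linear signal intensity per probe set, made by the authors with GCOS per the submitters' processing notes, with no version given; the trimmed means show that each array had been scaled to about the same mean. No detection calls were used.

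Each intensity plus 16 was put on the log2 scale. Probe sets below the 40th percentile of the mean over all arrays were left out. limma 3.58.1 (lmFit, eBayes with trend, Benjamini-Hochberg over 10527 probe sets, threshold 0.05) in R 4.3.3 was fitted to each kind of RNA and to the powder differences, with 12 groups, growing season as a fixed effect, and the plant pool (both sides of 1 time and season) as a random block (duplicateCorrelation, statmod 1.5.0; within-pool correlation 0.575 in total RNA, 0.380 in polysomal RNA and 0.195 for loading). The code was tested on simulated data.

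The season is the replicate number, which the series text ties to growing seasons, so it pairs samples across groups: deviations of same-season arrays correlated with a median of 0.621 over 66 pairs of total RNA groups (0.505 to 0.892) and of 0.661 in polysomal RNA (−0.0268 to 0.896). With 2 arrays per group, p-values measure the spread left between 2 seasons of pooled plants once their common difference is removed. That spread is estimated from all 12 groups together, and the number of arrays limits the precision.

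Gene names came from the array annotation, updated by gene ID through RefSeq (assembly Zm-B73-REFERENCE-NAM-5.0), whose coordinates were not used: 1 probe set lists several genes and 16092 list none. The named genes were every probe set of the 5 genes, the 10 of the chromatin list with the largest difference in either RNA among its 22 past the threshold anywhere, and the 3 genes most alike to each probe set by Pearson correlation. Only symbols, not gene descriptions, could be matched for the chromatin list. The members and lists were chosen with earlier results of these data known, so counts of calls over time leave out his1. The alternatives tried were quantile normalization, offsets of 4 and 64, no filter, no pool block, pool means, no season term, leaving out the array that stood apart, and leaving out each array.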

Additional observations from a re-analysis of the deposited data

How the results depend on the processing

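The depth of these data is 2 arrays per group, so a call can turn on 1 array, and probe sets near the filter have little signal over background to compare. Counts below are of the 10 bright probe sets, and for comparisons over time of the 7 that are not of his1, which was chosen on such values. The lower loading of the 3 hdt103 probe sets in vertical powders passed under every setting run and in all 24 fits without 1 powder, and the count for vertical loading was 3 to 6. The count of changes from vertical in polysomal RNA was 1, and became 0 with quantile normalization, pool means or no replicate block, and 3 without the pool block. For 15 and 30 min minus 2 and 5 min, the count in total RNA was 0, and became 1 without the pool block. The side count in polysomal RNA was 1, and became 0 without the pool block or without the array that stood apart. Leaving out each array in turn gave 0 to 1 for polysomal change, 0 to 3 for the polysomal side count and 0 to 1 for the loading side count. These fits kept the within-pool correlation of all arrays. The near-zero vertical loading of his1 Zm.6393.2.S1_x_at, 0.03, turned to −0.0137 without the left vertical powder of season 1 and was 0.0783 without that of season 2. Without the replicate block, which removes the pairing by season, hdt103 Zm.856.1.A1_a_at in polysomal RNA at 15 min had an adjusted p of 0.443, nfa104 Zm.7309.1.S1_s_at loading of 0.0764, and no other single call changed. Over all probe sets, calls at 15 min went from 293 to 953 in total and from 399 to 865 in polysomal RNA without the pool block, to 189 and 238 with pool means, and to 78 and 118 without the replicate block. Pool means give no value for sides. For each of these changes the cause was not tested.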
